A study of Homo sapiens with 4 samples.

Results

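Polycomb repressive complex 1 (PRC1) was followed through 9 subunit genes, chosen by symbol: BMI1, RNF2, CBX2, CBX6, CBX7, CBX8, PHC1, PHC2 and PHC3. All 9 were found among the 26364 gene symbols counted in each library. The cells were NCI-H460, an established line from a human non-small cell lung cancer. They were irradiated with gamma rays (0 or 4 Gy), after which 3-deazaneplanocin A (DZNep, 2 uM) or the solvent control DMSO was present for 48 h. Each of the 4 combinations of drug and dose was 1 library, so no group had a replicate, and the results describe 1 cell line. The study looked for genes that respond differently to these treatments.

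PRC1 is a chromatin complex that attaches a single ubiquitin to histone H2A and compacts chromatin at silenced developmental genes. Its core is a RING protein, RNF2 or RING1, paired with a PCGF protein such as BMI1 (also called PCGF4). In the canonical form, a CBX subunit binds the histone H3 mark laid down by the sister complex PRC2, and a PHC subunit links PRC1 complexes to each other. DZNep inhibits S-adenosylhomocysteine hydrolase and so slows methylation by enzymes that include the catalytic subunit of PRC2.

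Library totals ran from 112461380 to 136594350 counts, so 1 count equalled 0.00732 to 0.00889 CPM (counts scaled by library size). Levels are given as CPM scaled between libraries by edgeR's TMM method. Of the epithelial markers, KRT8, KRT18 and KRT7 stood above 1 CPM in every library, and EPCAM and CDH1 stayed below 0.5 CPM. The summed level of the 5 was 1349 and 1528 CPM in DMSO and 3750 and 4134 CPM in DZNep at 0 and 4 Gy, nearly all of it KRT8 and KRT18. EPCAM went the other way, at 0.491 and 0.445 CPM in DMSO and 0.17 and 0.044 CPM in DZNep. The 4 lung lineage markers summed to at most 0.36 CPM. Of 11 markers of blood, vessel and stromal cells, CD68 and COL1A1 passed 1 CPM, and the other 9 summed to 1.31 to 1.76 CPM. COL1A1 fell with DZNep (log2 fold change -0.54, SE 0.18, adjusted p = 0.0491 by edgeR's quasi-likelihood test). The vessel markers PECAM1, VWF and CDH5 were low and not tested. In DMSO at 0 and 4 Gy and then in DZNep at 0 and 4 Gy, PECAM1 had 1, 4, 40 and 21 counts. VWF had 1, 0, 49 and 17 counts in that order, so PECAM1 and VWF were higher in DZNep. CDH5 did not share this, with 0, 0, 2 and 0 counts. The stromal marker DCN, also not tested, had 75, 47, 0 and 63 counts. The part of these markers in the results below was not tested.

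With DZNep, 3 PRC1 subunit genes rose and 0 fell: BMI1, a PCGF partner of the RING core, and CBX2 and CBX6, which carry the chromodomain. The largest of these differences was that of BMI1, at 1.71-fold. RNF2, CBX8 and the 3 PHC genes did not pass the test, and CBX7 was too low to be tested. The test was edgeR's quasi-likelihood test with drug and dose as additive factors over all 4 libraries, with Benjamini-Hochberg adjustment over 13378 genes and a threshold of 0.05. The same test called 10.8% of all tested genes higher and 12.3% lower with DZNep. At an unadjusted p under 0.05 there were 3 of the 8 tested members, against 36% of tested genes. The 8 members that passed the filter on low counts had a median log2 fold change of 0.38, against -0.02 over all tested genes. The 5 other canonical PRC1 subunits, listed further below, had a median of -0.16, with 2 estimates above 0 and 3 below. The calls depended on the fit: with dose left out of the model, or with drug alone as a factor and any 1 of the 4 libraries left out, 0 members passed, and with no filter on low counts only BMI1 did. A bulk measurement cannot tell a change in RNA per cell from a change in the share of cells that hold it.

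**Figure D1:**
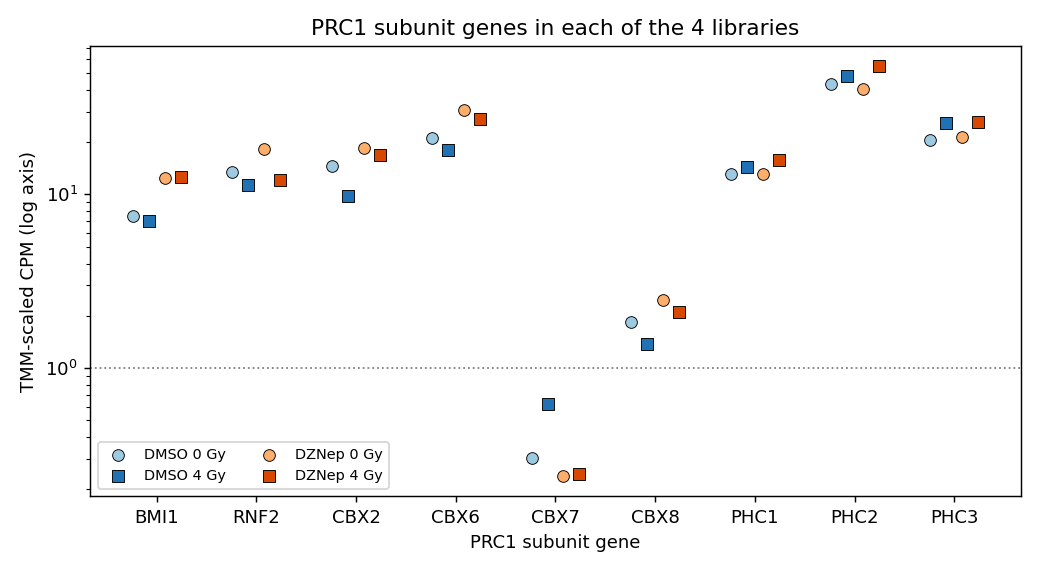
TMM-scaled CPM on a log axis for each of the 9 PRC1 subunit genes, with 1 point per library (circles 0 Gy, squares 4 Gy, blue DMSO, orange DZNep) and a dotted line at 1 CPM. BMI1, CBX2, CBX6 and CBX8 have both DZNep points above both DMSO points, and CBX7 lies below 1 CPM in all 4 libraries.

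BMI1 stood at 7.56 CPM in DMSO 0 Gy, 7.07 in DMSO 4 Gy, 12.5 in DZNep 0 Gy and 12.6 in DZNep 4 Gy. Both DZNep libraries lay above both DMSO libraries, as they did for 4 of the 9 members and 26.3% of tested genes, and within each drug the libraries at 0 and 4 Gy lay close together. The log2 fold change with DZNep was 0.78 (SE 0.19, adjusted p = 0.0119 by edgeR's quasi-likelihood test). Taken library by library, the log2 ratio of DZNep to DMSO was 0.72 at 0 Gy (95% counting interval 0.61 to 0.84) and 0.83 at 4 Gy (0.71 to 0.96). These intervals are exact conditional binomial intervals and cover counting error only. No other member reached the 1.5-fold ratio at 0 Gy, a size reached by 13.7% of tested genes upwards and 15.5% downwards. For radiation the BMI1 estimate was -0.04 (SE 0.19, adjusted p = 0.922 by the same test).

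The BMI1 count is uncertain because another gene model shares part of its exons. COMMD3, which encodes a protein of endosomal sorting, lies upstream of BMI1 on the same strand. The count tables also list COMMD3-BMI1, a read-through transcript that joins both genes. In GENCODE 29 on the GRCh38 build, BMI1 spans chr10:22321211-22331484 and COMMD3 ends 902 bases before it. Of the 1419 exon bases of COMMD3-BMI1, 70.5% are also BMI1 exon, 29.5% are also COMMD3 exon and 0 belong to it alone. Those shared bases are 29.2% of the exon bases of BMI1. Reads of COMMD3-BMI1 can therefore be told from those of its neighbours only where they cross the junction. The rule by which shared reads were counted is not given in the sources used here.

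All 3 symbols of the locus rose with DZNep, as did 10.8% of tested genes. COMMD3 stood at 6.49 and 7.66 CPM in DMSO and at 12.2 and 12.4 CPM in DZNep, at 0 and 4 Gy (log2 fold change 0.81, SE 0.20, adjusted p = 0.0109). COMMD3-BMI1 stood at 11.5 and 11.8 CPM in DMSO and at 19.7 and 20.1 CPM in DZNep (0.77, SE 0.18, adjusted p = 0.00823). For both symbols the 2 drug groups did not overlap, with DZNep the higher, as in 26.3% of tested genes. The count of COMMD3-BMI1 was 0.797 to 0.822 times the sum of BMI1 and COMMD3 counts in the 4 libraries. The ratio of COMMD3 to BMI1 counts was lowest in DMSO 0 Gy, at 0.859, and highest in DMSO 4 Gy, at 1.08. Between those libraries the log2 ratio of 4 to 0 Gy was 0.24 (0.10 to 0.38) for COMMD3 and -0.10 (-0.23 to 0.04) for BMI1.

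**Figure D2:**
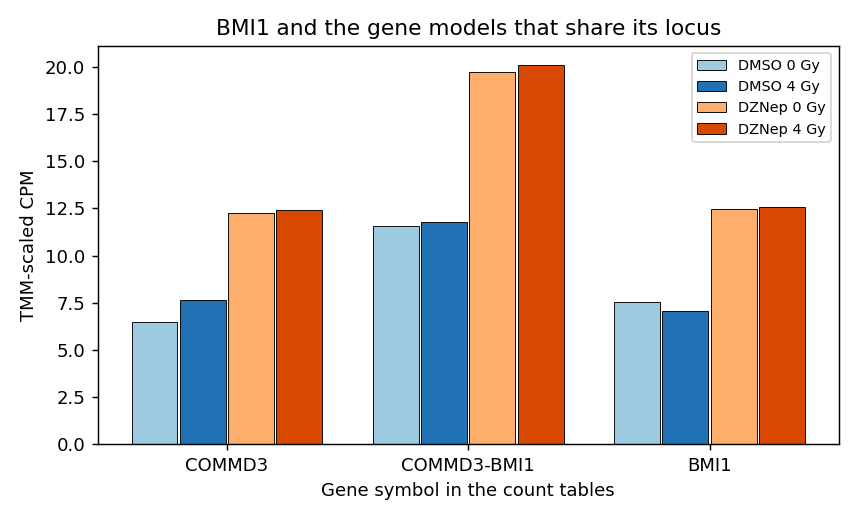
TMM-scaled CPM of the 3 symbols that share the BMI1 locus, as 1 bar per library, with no error bars since each group is 1 library. In each symbol both DZNep bars (orange) are taller than both DMSO bars (blue), as for BMI1 at 12.5 and 12.6 against 7.56 and 7.07 CPM.

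The start sites of BMI1 and of COMMD3 are separate, and their promoter sequences are shown because both genes rose. Each window runs from 250 bases before to 50 bases after a start site in RefSeq (GRCh38.p14), 5′ to 3′ on the gene's strand. Capitals mark the E-box CACGTG, a palindrome that factors such as MYC and USF bind. BMI1 has a second window in RefSeq, which holds no such match. The COMMD3 window also serves COMMD3-BMI1. The BMI1 window is chr10:22320849-22321148 and the COMMD3 window chr10:22316138-22316437, both on the plus strand.
BMI1: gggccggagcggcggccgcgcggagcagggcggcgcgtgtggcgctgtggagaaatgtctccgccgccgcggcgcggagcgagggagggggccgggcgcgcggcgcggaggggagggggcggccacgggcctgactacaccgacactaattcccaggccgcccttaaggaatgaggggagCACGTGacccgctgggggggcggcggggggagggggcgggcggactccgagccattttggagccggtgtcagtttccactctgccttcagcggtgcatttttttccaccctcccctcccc
COMMD3: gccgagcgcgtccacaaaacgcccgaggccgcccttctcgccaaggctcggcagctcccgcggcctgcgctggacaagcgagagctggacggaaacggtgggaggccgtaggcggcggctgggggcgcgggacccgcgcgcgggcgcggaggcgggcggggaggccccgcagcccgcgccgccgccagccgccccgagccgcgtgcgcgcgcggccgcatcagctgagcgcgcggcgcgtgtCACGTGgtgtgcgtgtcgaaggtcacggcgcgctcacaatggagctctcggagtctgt

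CBX6, the other member with a promoter entry that rose, holds the same motif in chr22:38872167-38872466, on the minus strand.
CBX6: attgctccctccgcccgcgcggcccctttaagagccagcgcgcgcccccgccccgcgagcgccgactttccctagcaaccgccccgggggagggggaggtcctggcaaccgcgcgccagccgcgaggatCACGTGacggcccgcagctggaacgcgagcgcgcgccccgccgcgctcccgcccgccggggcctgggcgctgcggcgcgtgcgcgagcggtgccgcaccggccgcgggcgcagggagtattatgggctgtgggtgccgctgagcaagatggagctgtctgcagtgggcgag

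Members on either side of the threshold held the motif. PHC2 and PHC3, which did not pass the test, hold it as well, and 30 bases around their matches are shown beside those of the genes above.
BMI1: gaatgaggggagCACGTGacccgctggggg
COMMD3: cgcggcgcgtgtCACGTGgtgtgcgtgtcg
CBX6: agccgcgaggatCACGTGacggcccgcagc
PHC2: ggctggagcggcCACGTGacgcgcgctggt
PHC3: agctgaggacgcCACGTGacctctggctcc

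RefSeq promoter windows were at hand for 7 of the 9 members and not for CBX2 or CBX8. Of those 7, BMI1, CBX6, PHC2 and PHC3 held CACGTG, and RNF2, CBX7 and PHC1 did not. The motif occurs in 7.26% of all 35116 windows of that length, and in 10.5% of the windows with 30 or more CpG. The same 4 members hold the longer form CACGTGAC on either strand, which contains the E-box and occurs in 2.4% of all windows. COMMD3 holds the longer form on the opposite strand. The longer form was looked for after the windows had been seen. The 7 members have 10 windows, of which 4 hold the E-box and 4 the longer form. The GC box GGGCGG was found in 9 of the 10 and in 45% of all windows. The E2F forms TTTCGCGC and TTTGGCGC were found in 0 of the 10 and together in 1.15% of windows. The same search covered CCAAT, found in 3 of the 10 and in 34.6% of all windows. It also covered TATAAA, in 2 of the 10 and 11.5%, and TGACGTCA, in 0 of the 10 and 1.85%. A match is a stretch of letters and not evidence of binding.

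RNF2, the RING ubiquitin ligase that pairs with BMI1, lies at chr1:185045364-185102608 in GENCODE 29 (GRCh38). It stood at 13.5 CPM in DMSO 0 Gy, 11.3 in DMSO 4 Gy, 18.2 in DZNep 0 Gy and 12.05 in DZNep 4 Gy. The library with DZNep and no radiation was the highest, and the other 3 lay close together. Its DZNep log2 fold change of 0.26 (SE 0.19, adjusted p = 0.338) did not pass. The 2-library ratio was 0.43 (0.34 to 0.51) at 0 Gy and 0.10 (-0.01 to 0.21) at 4 Gy, and without the DZNep 0 Gy library, in a fit with drug alone as a factor, the estimate was -0.03. RNF2 was the member with both 4 Gy libraries below both 0 Gy libraries, a pattern held by 17.1% of tested genes. Its radiation log2 fold change was -0.43 (SE 0.19, unadjusted p = 0.0395, adjusted p = 0.214 by edgeR's quasi-likelihood test), and did not pass. The fall from 0 to 4 Gy was -0.26 (-0.37 to -0.16) in DMSO and -0.59 (-0.69 to -0.50) in DZNep.

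CBX2 and CBX8 lie tail to tail on chromosome 17, at chr17:79778132-79787983 and chr17:79792132-79801683 in GENCODE 29 (GRCh38), 4148 bases apart. CBX2 stood at 14.5 CPM in DMSO 0 Gy, 9.82 in DMSO 4 Gy, 18.5 in DZNep 0 Gy and 16.9 in DZNep 4 Gy. DMSO 4 Gy was the lowest library. The drug groups did not overlap, with DZNep the higher, as in 26.3% of tested genes. The DZNep log2 fold change was 0.57 (SE 0.19, adjusted p = 0.0471 by edgeR's quasi-likelihood test). The ratio was 0.36 (0.27 to 0.44) at 0 Gy and 0.78 (0.67 to 0.89) at 4 Gy. The call lay next to the threshold: DESeq2 gave an adjusted p of 0.0517, and without the DMSO 4 Gy library, in a fit with drug alone as a factor, the estimate was 0.29.

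CBX8, the neighbour of CBX2, was low, with 256, 155, 318 and 238 counts in DMSO at 0 and 4 Gy and then in DZNep at 0 and 4 Gy. These equal 1.85, 1.38, 2.46 and 2.09 CPM, and the order of the libraries was that of CBX2. The drug groups did not overlap, again with DZNep the higher, as in 26.3% of tested genes. The estimate of 0.50 (SE 0.31, adjusted p = 0.265 by edgeR's quasi-likelihood test) did not pass. At 0 Gy the ratio was 0.41 (0.17 to 0.65) and at 4 Gy 0.59 (0.30 to 0.90).

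CBX6 and CBX7 lie on chromosome 22, at chr22:38861450-38872314 and chr22:39120167-39152674. CBX6 stood at 21.1 CPM in DMSO 0 Gy, 18.1 in DMSO 4 Gy, 30.5 in DZNep 0 Gy and 27.3 in DZNep 4 Gy. Both DZNep libraries lay above both DMSO libraries, as in 26.3% of tested genes, and at each drug the 4 Gy library was the lower. The log2 fold change with DZNep was 0.56 (SE 0.17, adjusted p = 0.0293 by edgeR's quasi-likelihood test). Its ratios at 0 and 4 Gy were close, at 0.53 (0.46 to 0.60) and 0.59 (0.51 to 0.67).

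CBX7, a chromodomain subunit known from stem cells and as a repressor of the INK4 locus, was the least abundant member. It had 42, 70, 31 and 28 counts in DMSO at 0 and 4 Gy and then in DZNep at 0 and 4 Gy, or 0.303, 0.623, 0.24 and 0.246 CPM. DMSO 4 Gy stood apart from the other 3 libraries. CBX7 did not reach 1 CPM in any library and so was not tested. It was also the member with both DZNep libraries below both DMSO libraries, as were 27.8% of tested genes. Its ratio of DZNep to DMSO was -0.32 (-1.06 to 0.36) at 0 Gy and -1.28 (-2.03 to -0.69) at 4 Gy. With no filter on low counts, edgeR's quasi-likelihood test gave -0.84 (adjusted p = 0.474).

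The 3 PHC genes encode polyhomeotic proteins, which join into chains through their SAM domains. PHC1 lies at chr12:8913896-8941467, PHC2 at chr1:33323623-33431052 and PHC3 at chr3:170086732-170181749 (GRCh38). PHC1 stood at 13.1 CPM in DMSO 0 Gy, 14.5 in DMSO 4 Gy, 13.1 in DZNep 0 Gy and 15.8 in DZNep 4 Gy. PHC2 stood at 43.1, 48.1, 40.6 and 54.6 CPM in the same order. PHC3 stood at 20.6, 25.7, 21.3 and 26.2 CPM.

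In all 3 PHC genes the drug groups overlapped, and the DZNep log2 fold changes were 0.06 (SE 0.18) for PHC1, 0.05 (SE 0.16) for PHC2 and 0.04 (SE 0.17) for PHC3. Both 4 Gy libraries lay above both 0 Gy libraries in each of them, as in 15.8% of tested genes. Their radiation log2 fold changes were 0.21 (SE 0.18), 0.30 (SE 0.16) and 0.31 (SE 0.17), and none passed the test, with adjusted p of 0.558, 0.327 and 0.321 by edgeR's quasi-likelihood test. The end of PHC1 overlaps M6PR on the opposite strand, with 1104 exon bases shared (20.6% of PHC1), and the use of strand is not given in the sources used here. M6PR stood at 23.9, 17.1, 22.4 and 21.0 CPM in the order given for PHC1, so its 4 Gy libraries were the lower ones.

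**Figure D3:**
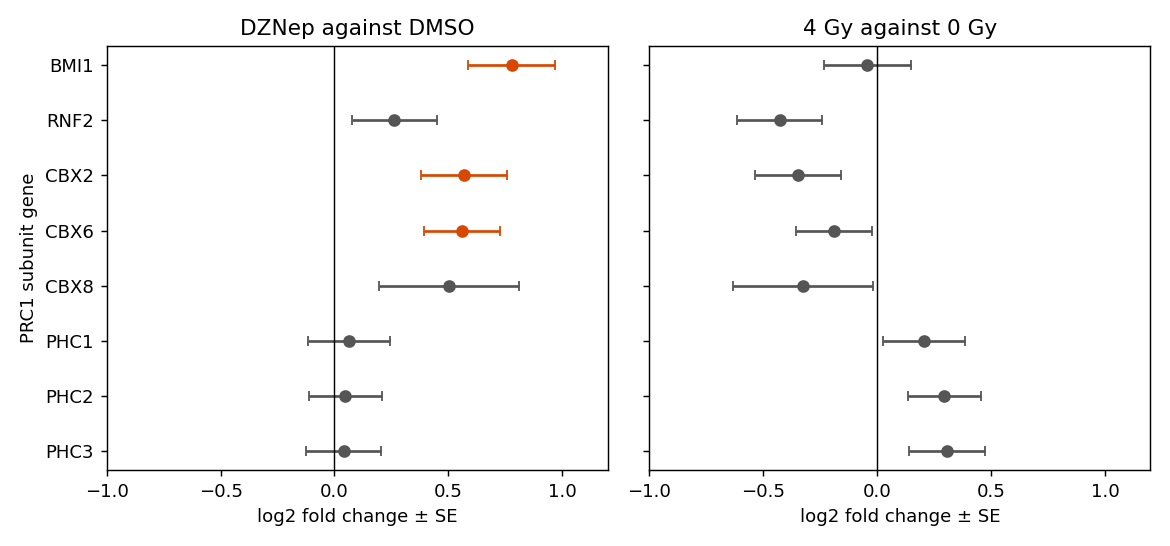
Log2 fold changes with DZNep (left) and with 4 Gy (right) for the 8 tested PRC1 subunit genes, as points with bars of 1 SE from the additive edgeR fit over 4 libraries. The 3 genes past the threshold (orange) are BMI1, CBX2 and CBX6 on the left, and all points on the right are grey because 0 genes passed.

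With radiation, 0 of the 8 tested members rose and 0 fell by edgeR's quasi-likelihood test, and 1 of them, RNF2, had an unadjusted p under 0.05, as did 20.6% of tested genes. DESeq2 also called 0 members. Over all tested genes, radiation gave 2.17% higher and 0.897% lower calls. The 3 PHC genes had positive estimates, and BMI1, RNF2, CBX2, CBX6 and CBX8 had negative ones. The median of the 8 was -0.12, against 0.01 over all tested genes. Library by library, CBX7 was at least 1.5-fold higher at 4 Gy in DMSO and 0 members were as much lower, against 11.5% and 8.2% of tested genes. In DZNep, 0 members were at least 1.5-fold higher and RNF2 was lower by that much, against 7.09% and 6.35% of tested genes. The radiation ratio had the same sign in DMSO and DZNep for 8 of the 9 members, BMI1 being the exception, and for 65.7% of tested genes.

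Whether radiation acted differently with the drug has no error estimate here, since each of the 4 groups is 1 library. The radiation ratio in DZNep minus the one in DMSO was 0.42 for CBX2, 0.27 for PHC2, -0.33 for RNF2 and within 0.19 of 0 for BMI1, CBX6, CBX8, PHC1 and PHC3. For CBX7 it was -0.96 and rests on the 70 counts in DMSO 4 Gy. A difference of 1.5-fold or more was reached by 1 of 9 members, CBX7, and by 19% of tested genes. At 4 Gy the DZNep ratio was at least 1.5-fold upwards for BMI1, CBX2, CBX6 and CBX8 and downwards for CBX7, sizes reached by 12.5% and 15.3% of tested genes. The DZNep ratio had the same sign at 0 and 4 Gy for 7 of the 9, the exceptions being PHC1 and PHC2, and for 74.2% of tested genes.

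**Figure D4:**
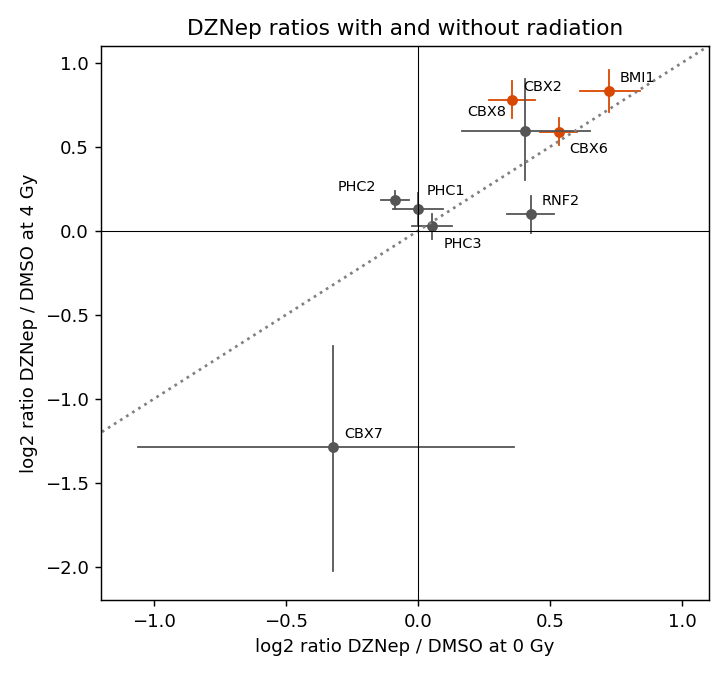
Log2 ratio of DZNep to DMSO at 0 Gy (x axis) and at 4 Gy (y axis) for the 9 PRC1 subunit genes, with 95% counting intervals as lines, equality as a dotted line and the 3 called genes in orange. BMI1 and CBX6 lie near equality, CBX2 lies above it at 0.36 and 0.78, and RNF2 lies below it at 0.43 and 0.10.

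Levels between genes were compared as TMM-scaled CPM per kb of exon, with exon lengths from the basic GENCODE 29 models. PHC2 was the highest member in every library, at 9.74 to 13.1 CPM per kb. CBX6, RNF2, BMI1, CBX2 and PHC1 followed with means over the libraries of 3.96, 3.81, 2.89, 2.78 and 2.64, and the range of each overlapped with that of the next. PHC3 averaged 1.64 CPM per kb, CBX8 0.513 and CBX7 0.0865, and these 3 ranges did not overlap.

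The summed level of the 4 CBX members was 6.70 and 5.31 CPM per kb in DMSO and 9.14 and 8.21 in DZNep, at 0 and 4 Gy. CBX6 made up 51.4% to 55.8% of it, CBX2 34.4% to 40.2%, CBX8 6.72% to 7.28% and CBX7 0.642% to 2.88%. The PHC sum was 14.2 and 16.1 CPM per kb in DMSO and 13.7 and 17.9 in DZNep. PHC2 made up 71.2% to 73.3% of it, PHC1 16.5% to 17.9% and PHC3 10.1% to 11.2%. These shares depend on the exon lengths: without division by length PHC3 made up 26.8% to 29.1%.

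**Figure D5:**
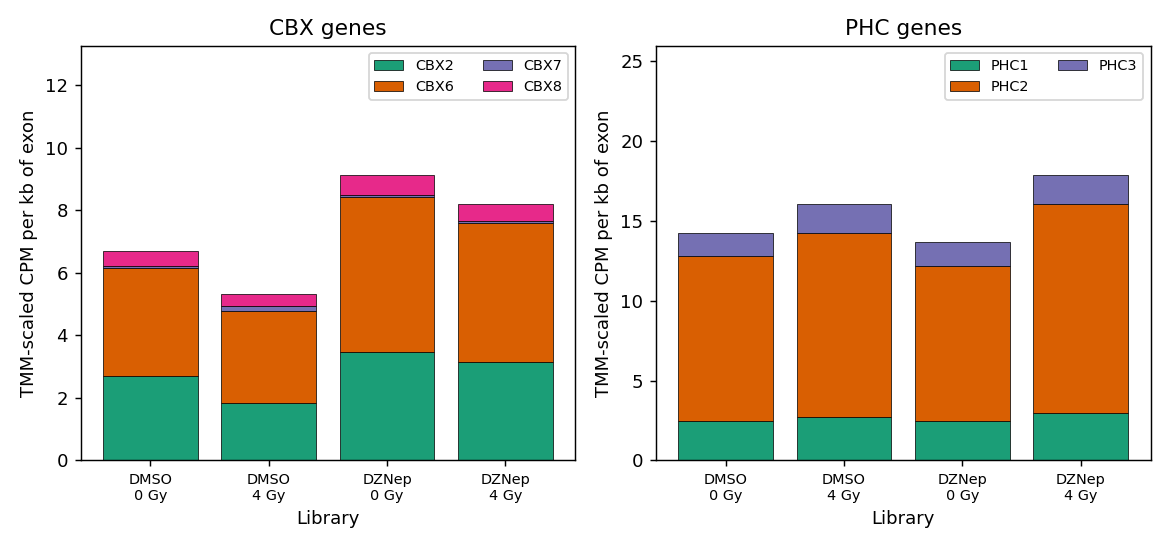
Stacked TMM-scaled CPM per kb of exon of the 4 CBX members (left) and the 3 PHC members (right) in each library, with no error bars since each group is 1 library. The CBX bars are taller in DZNep (9.14 and 8.21) than in DMSO (6.70 and 5.31), and the PHC bars are taller at 4 Gy (16.1 and 17.9) than at 0 Gy (14.2 and 13.7).

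The remaining PRC1 genes were read from lists of known subunits. Of 5 other canonical subunits, 0 rose with DZNep and 1 fell, against 10.8% and 12.3% of tested genes. The 1 that fell was SCML1, a gene of the sex comb on midleg family (-0.64, SE 0.17, adjusted p = 0.0156 by edgeR's quasi-likelihood test). RING1, the paralog of RNF2, stood at 6.81 and 9.42 CPM in DMSO and 8.51 and 12.8 CPM in DZNep at 0 and 4 Gy, so that it was higher at 4 Gy, where RNF2 was lower. Its radiation estimate of 0.53 (SE 0.19, adjusted p = 0.146) did not pass. SCML2 had a radiation estimate of -0.55 (SE 0.18, adjusted p = 0.112). PCGF2, another PCGF gene, stood at 99.96 and 108.3 CPM in DMSO and 89.29 and 96.92 CPM in DZNep at 0 and 4 Gy. Without division by exon length, these levels lay above those of BMI1 in every library. The DZNep estimate of PCGF2, at -0.16 (SE 0.15, adjusted p = 0.47), did not pass. With radiation, 0 of the 5 passed, against 2.17% of tested genes called higher and 0.897% called lower. At an unadjusted p under 0.05 there were 3 of the 5, against 20.6% of tested genes.

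Variant PRC1 complexes replace CBX and PHC with RYBP or YAF2 and carry other PCGF proteins. Of 27 such subunits, 2 rose with DZNep and 0 fell, against 10.8% and 12.3% of tested genes. They were BCOR, a corepressor that joins PCGF1, with 0.48 (SE 0.15, adjusted p = 0.0322), and MGA, a DNA-binding partner of MAX that joins PCGF6, with 0.51 (SE 0.17, adjusted p = 0.0496). PCGF6 had 0.64 (SE 0.23, adjusted p = 0.0569) with DZNep and -0.64 (SE 0.23, adjusted p = 0.13) with radiation, and passed in neither. The median of the 27 was -0.09, with 10 estimates above 0 and 17 below. With radiation 0 rose and CBX3, a heterochromatin protein that joins the PCGF6 complex, fell (-0.72, SE 0.17, adjusted p = 0.046), against 2.17% and 0.897% of tested genes. USP7 (-0.54, SE 0.15, adjusted p = 0.0668) and FBRS (0.58, SE 0.16, adjusted p = 0.0682) did not pass.

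Of 8 genes that remove ubiquitin from H2A or assist in it, 0 passed with DZNep and 0 with radiation. The shares of tested genes called higher and lower were 10.8% and 12.3% with DZNep, and 2.17% and 0.897% with radiation. At an unadjusted p under 0.05 there was 1 of the 8 with each treatment, against 36% of tested genes with DZNep and 20.6% with radiation. BAP1, the catalytic subunit of the main complex of this kind, had a DZNep estimate of 0.40 (SE 0.17, adjusted p = 0.103). MYSM1 had -0.41 with DZNep (SE 0.26) and USP16 -0.55 with radiation (SE 0.20, adjusted p = 0.144). CDKN2A, which encodes the cell cycle inhibitor best known as a target of BMI1, had 10, 0, 6 and 8 counts in DMSO at 0 and 4 Gy and then in DZNep at 0 and 4 Gy. A count of 0 allows up to 3 counts, or 0.0267 CPM in that library, for counting error only. CDKN2B had 0, 0, 8 and 2 counts in the same order. Neither was tested. Of the INK4 family, CDKN2C (-0.16, SE 0.27) and CDKN2D (0.23, SE 0.49) were tested and did not pass with DZNep, nor with radiation (-0.56, SE 0.27, and -0.90, SE 0.49). Both were lower in DZNep at 0 Gy, with log2 ratios of -0.72 (-0.85 to -0.60) for CDKN2C and -0.87 (-1.18 to -0.59) for CDKN2D. At 4 Gy both were higher in DZNep, at 0.41 (0.25 to 0.57) and 1.41 (0.99 to 1.91). DMSO 4 Gy was the lowest library for both genes, at 4.97 CPM for CDKN2C and 0.498 CPM for CDKN2D. From 0 to 4 Gy in DMSO the log2 ratio was -1.12 (-1.27 to -0.99) for CDKN2C and -2.06 (-2.53 to -1.68) for CDKN2D. In DZNep it was 0.01 (-0.13 to 0.15) and 0.23 (-0.10 to 0.57). These intervals cover counting error only.

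The tested genes whose pattern over the 4 libraries lay nearest to that of BMI1 were RHBDD1, NME3, AAR2, GGCX and SLC1A5. Likeness was the Euclidean distance of centred log2 CPM, among 7774 genes at a mean of 10 CPM or more. RHBDD1, a rhomboid protease gene, was the nearest, at a distance of 0.0559 and with 36.2, 34.7, 59.75 and 58.4 CPM in DMSO at 0 and 4 Gy and then in DZNep at 0 and 4 Gy. The other 4 lay at 0.0626 to 0.0795. COMMD3-BMI1 ranked 8 by the same measure, at 0.0888. Since 70.5% of its exon bases are also BMI1 exon, its count may not be independent of that of BMI1. COMMD3, whose mean was under 10 CPM, would have ranked 148, at 0.238.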

How the data were processed

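The values the authors deposited are unnormalized counts for each gene symbol, in a separate table for each library. The submitters' processing notes name TopHat, edgeR and the build hg19. Versions, counting program, annotation and strand setting were not given. Per the labels' protocols, libraries were made from Trizol RNA with the Lexogen SENSE mRNA kit. Even values made up 55.9% to 58.1% of counts of 1 to 59, so mates of 1 fragment may have been counted separately and counting intervals may be too narrow.

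Scaling used the TMM method of edgeR 4.0.16 under R 4.3.3 (factors 0.979 to 1.01). Genes had to reach 1 CPM in 2 or more libraries, and the 13378 that did were tested with drug and dose as additive factors (1 residual and 11.5 prior degrees of freedom). The labels do not say that the 4 libraries are separate cultures, so p-values measure only the spread among them, into which an interaction would also fall. SE is the log2 fold change over the square root of F. Ratios of 2 libraries used a prior count of 2.

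Members and lists were chosen with earlier results of these data known. All 9 members were named, and PCGF2 was added as another PCGF gene. From each other list, called genes and the 3 uncalled genes with the largest absolute estimate in either effect were named, along with genes that overlap a member and the 5 nearest to BMI1. 1 gene that this rule names is not reported here. Alternatives were DESeq2 1.42.0, 2 other scalings, 2 other filters, short RNAs left out, 1 factor alone and each library left out. Exon lengths and positions are from GENCODE 29 and promoters from RefSeq, both on GRCh38, not hg19, and were matched by symbol.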

Additional observations from a re-analysis of the deposited data

How the results depend on the processing

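The count of 3 PRC1 members rising with DZNep was the same with RLE scaling, plain library sizes, a 10 CPM filter and short RNAs left out, and it was 2 by DESeq2. It was 1, BMI1, with no filter on low counts, where CBX2 had an adjusted p of 0.0782 and CBX6 of 0.054. It was 0 without dose in the model, where BMI1 had an adjusted p of 0.085. It was also 0 in each of the 4 fits that left out 1 library, which had drug alone as a factor. There the estimates ran from 0.74 to 0.80 for BMI1, 0.29 to 0.83 for CBX2 and 0.46 to 0.65 for CBX6, with adjusted p of 0.15 to 0.302, 0.125 to 0.57 and 0.194 to 0.505. The count of members falling with DZNep, and of members rising or falling with radiation, was 0 in every setting run.

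Over all genes, 3086 were called with DZNep, 721 without dose in the model and 290 to 842 with 1 library left out. With radiation, 410 were called, 617 with plain library sizes, 199 with no filter, 1031 with a 10 CPM filter, 669 by DESeq2, and 0 without drug in the model, with all 4 libraries or with any 1 left out.

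Estimates that changed sign when 1 library was left out had not passed the test. Each of these fits also had 1 factor alone, drug for DZNep and dose for radiation, so both choices changed together. With DZNep they ran from -0.032 to 0.56 for RNF2, -0.066 to 0.21 for PHC1, -0.16 to 0.27 for PHC2 and -0.14 to 0.21 for PHC3. With radiation they ran from -0.51 to 0.38 for BMI1, -0.75 to 0.015 for CBX2 and -0.51 to 0.11 for CBX6. The causes were not tested. All 72 alternative values of the 2-library ratios lay within their counting intervals. Of 56 alternative family shares, 36 moved by more than counting error, and the longer exon lengths among them were chosen after seeing the data. No paired analysis was possible because each group has 1 library and the labels give no replicate numbers.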
